A study of Mus musculus with 9 samples.

Results

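Genes that were read almost only in TDC were examined in sorted spleen cells of naive mice. The mice were 8 weeks old, carried the Zbtb46-GFP reporter on both alleles and had no treatment. The set holds 10 genes (Slpi, Pcolce2, Slco2b1, Slc1a3, Vstm4, Paqr9, Mrap, Hs3st2, Gpd1 and Vnn3) of the 50508 rows in the count table. They were picked from these same libraries because they lay far above both controls in TDC with no or few reads in T cells and DC. The levels that set TDC apart from the controls are therefore a description here and carry no test. The 9 libraries fall into TDC, conventional T cells and conventional DC, with 3 libraries each. All groups share the reporter genotype, the age and the absence of treatment. Each library came from spleens pooled from 5 mice (replicate 1) or 6 mice (replicates 2 and 3). In the count table the column headers of 1 replicate number share a prefix, but the labels do not say whether its populations came from the same mice. The sources used here give neither the surface gates that defined TDC nor how the reporter alters the Zbtb46 locus.

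TDC is the submitters' name for the population, and the comparison with T cells and DC asks what it shares with each and what it does not. The 10 genes do not form a pathway. They encode secreted proteins, membrane transporters, surface or receptor-like proteins and enzymes. Most are best known from outside the lymphoid organs: Slc1a3 and Hs3st2 from the nervous system, Mrap from adrenal cortex and fat, Gpd1 from fat, liver and muscle, Pcolce2 from connective tissue, and Slpi from mucosal epithelium and myeloid cells. The spleen holds red pulp macrophages, which engulf aged red cells, recycle their heme iron and depend on the transcription factor Spi-C.

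Promoter sequence is shown for 3 members, so that the starts of the gene with the most reads (Slpi), of the most abundant gene that had no control read (Pcolce2) and of the gene with the lowest high-to-low ratio among TDC libraries (Vnn3) can be seen beside their values. Each is the 250 bases before the RefSeq start, on build GRCm38.p6, 5′ to 3′ along the gene. The count table names no mouse build, so the coordinates belong to RefSeq's copy and not to the counts. Capitals mark letters that match a searched motif on either strand, of ETS factors such as PU.1 (GAGGAA), AP-1 (TGANTCA), E-box (CACGTG), C/EBP (TTGCNNAA) or MAF factors (TGCTGA).
Slpi, chr2:164356508-164356757, minus strand: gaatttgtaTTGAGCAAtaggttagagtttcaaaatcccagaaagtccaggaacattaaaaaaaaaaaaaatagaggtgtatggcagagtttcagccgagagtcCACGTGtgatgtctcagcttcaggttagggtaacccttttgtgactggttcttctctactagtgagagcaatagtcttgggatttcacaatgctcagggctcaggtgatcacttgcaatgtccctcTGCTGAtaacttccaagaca
Pcolce2, chr9:95637378-95637627, plus strand: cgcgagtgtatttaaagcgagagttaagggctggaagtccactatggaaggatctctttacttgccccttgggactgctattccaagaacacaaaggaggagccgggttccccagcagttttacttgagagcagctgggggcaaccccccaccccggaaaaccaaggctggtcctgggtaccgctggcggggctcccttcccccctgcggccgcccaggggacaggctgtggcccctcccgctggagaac
Vnn3, chr10:23851212-23851461, plus strand: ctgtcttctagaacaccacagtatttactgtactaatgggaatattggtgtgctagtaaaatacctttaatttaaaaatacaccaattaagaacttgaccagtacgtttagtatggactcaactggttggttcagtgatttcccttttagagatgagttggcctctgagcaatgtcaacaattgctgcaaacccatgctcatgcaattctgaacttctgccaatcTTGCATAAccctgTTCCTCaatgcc

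RefSeq windows of 300 bases, 250 before and 50 after the start, were at hand for 7 of the 10 members, 9 windows in all because Slco2b1 has 3 starts. No searched motif was present in all of them. The ETS letters occurred in windows of Slco2b1, Hs3st2 and Vnn3, and in 28.3% of all 32851 promoter windows. The C/EBP letters occurred for Slpi and Vnn3 and in 10.8% of all windows, the MAF letters for Slpi and in 19.5%, the E-box for Slpi and in 7.15%, and the AP-1 letters for Slco2b1 and in 7.81%. The antioxidant response element letters (TGANNNNGC, not capitalised above) were found for Slc1a3, Slco2b1 and Vnn3 and in 41.3% of all windows. At a start of Slco2b1 such a match overlaps an ETS match. GATA letters (AGATAA) were in none of the member windows and in 11.2% of all windows. The Pcolce2 and Vstm4 windows held none of the motifs. The motifs and the promoters shown were picked with the values known. These are matches of letters and are not shown to be binding sites.

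Levels are counts scaled to library size with TMM factors (CPM). The library kit samples transcripts at their 3' ends, for which reason counts were not divided by length, and CPM of different genes are compared on that 3' end scale only. Library totals ran from 14594850 to 22677130 reads in TDC, 10986544 to 18071425 in T cells and 14973484 to 25676640 in DC. At this depth 3 reads over a group were worth 0.0706 CPM in TDC, 0.0557 CPM in T cells and 0.0524 CPM in DC. These floors cover counting error only. In all 10 genes every TDC library lay above every T cell and DC library, a pattern that 14.2% of the 14708 tested genes had. Because the members were chosen for it, nothing is read from that share. In bulk libraries a smaller share of cells with a transcript and less transcript per cell cannot be told apart.

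**Figure D1:**
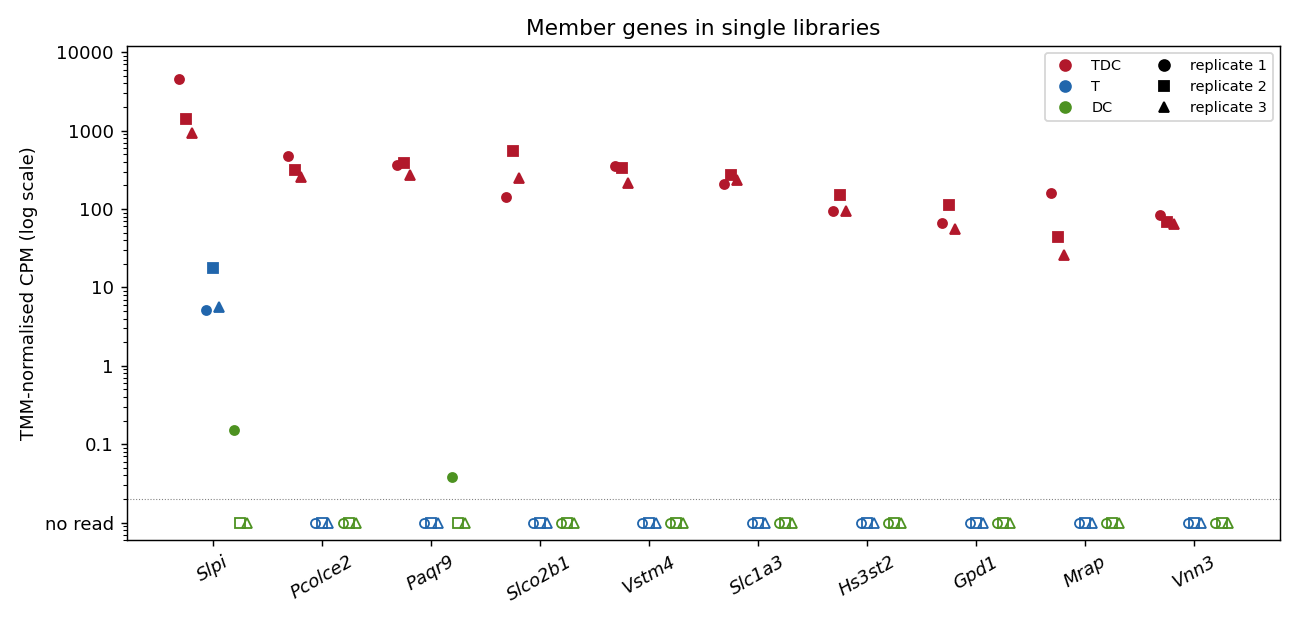
TMM-normalised CPM (log axis) of the 10 genes in each of the 9 libraries, ordered by TDC mean, with TDC in red, T cells in blue, DC in green and the replicate as the marker shape. Open symbols below the dotted line stand for no read. Slpi has reads in all T cell libraries and in DC replicate 1, and the only control read of another member is 1 for Paqr9 in DC replicate 1.

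Of the secreted proteins, Slpi, an inhibitor of leukocyte serine proteases known from mucosal epithelium, neutrophils and macrophages, had the highest level of the set. It was counted with 51128, 24882 and 12664 reads in TDC replicates 1, 2 and 3, against 73, 359 and 108 reads in the T cell libraries and 4, 0 and 0 reads in the DC libraries. TDC replicate 1 stood well above the other TDC libraries, and T cell replicate 2 above the other T cell libraries. As CPM these were 4588, 1387 and 944 in TDC, 5.13, 17.7 and 5.56 in T cells and 0.153, 0 and 0 in DC. The TDC mean was 2307 ± 1989 CPM and the T cell mean 9.48 ± 7.15 CPM (SD, n = 3 libraries each). Without TDC replicate 1 the TDC mean was 1166 CPM.

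Slpi was the only member with more than 1 read in the controls. It averaged 0.0510 ± 0.0884 CPM in DC, against 9.48 CPM in T cells, and all 3 DC libraries lay below all 3 T cell libraries. Members were chosen for low levels in both controls, so this is a description with no test. Over all genes 8.41% were called lower in DC than in T cells and 15.4% higher, and nothing is read from that here. A list of 16 red pulp macrophage genes was set beside Slpi in the controls. In T cells the list summed to 3.52 to 7.75 CPM, 0.00415% to 0.00916% of their TDC mean, whereas Slpi reached 0.223% to 0.769% of its own TDC mean. In DC the relation was the other way round, with 413 to 541 CPM for the list and Slpi at 0.00664% of its TDC mean in replicate 1. That value rests on 4 reads. Adgre1 (103 to 212 CPM) and Treml4 (154 to 187 CPM) made up most of the list's sum in DC. Every other gene of the list was at most 58.4 CPM (Hpgd) in a DC library. The source of the control reads of Slpi was not tested.

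Pcolce2 encodes a secreted enhancer of the enzyme that trims fibrillar procollagens. It had 5237, 5714 and 3432 reads in the TDC libraries (470, 319 and 256 CPM) and no read in any T cell or DC library. The mean of 348 ± 110.1 CPM was at least 6252-fold above T cells and at least 6644-fold above DC, bounds computed with 3 reads over the control group. Among genes of the procollagen pathway, its paralogue Pcolce had at most 0.897 CPM in any library, and the collagens Col1a1, Col1a2 and Col3a1 had at most 5 reads over the TDC libraries, with 15 for Col5a1. Of the C-proteinases, Bmp1 was at 1.71, 3.96 and 4.84 CPM in TDC, with no read in T cells and 3.56, 0.348 and 0 CPM in DC. Tll2 was at 1.88, 1.67 and 1.56 CPM in TDC, with no read in T cells and at most 0.209 CPM in DC, and Tll1 had no read in any library.

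Both transporters of the set had no reads in the controls. Slco2b1, an organic anion transporter of gut and liver that tissue macrophages also carry, had 1603, 9858 and 3339 reads in TDC replicates 1, 2 and 3 (144, 550 and 249 CPM). Replicate 2 was far above replicate 1, the reverse of Slpi, and the mean was 314 ± 211 CPM, or 196 CPM without replicate 2. Slc1a3, the glutamate transporter GLAST of astrocytes, had 2293, 4839 and 3128 reads (206, 270 and 233 CPM, mean 236 ± 32.1 CPM). It was at least 4243-fold above T cells and at least 4508-fold above DC. Its values in the TDC libraries lay close together.

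Of the surface and receptor-like proteins, Vstm4, a membrane protein with an immunoglobulin V domain and the precursor of a peptide described in retina, was at 355, 332 and 217 CPM in TDC (3952, 5963 and 2908 reads), with no read in either control. Paqr9, a progestin and adipoQ receptor family member, was at 360, 387 and 275 CPM (4006, 6936 and 3689 reads). It was at least 6113-fold above T cells. Its only control read was in DC replicate 1, a ratio of 19488 between TDC and DC rates with a 95% exact counting interval of 3498 to 769737. Mrap, the accessory protein that brings the ACTH receptor to the surface of adrenal cells and is also present in adipocytes, had 1797, 787 and 350 reads (161, 43.9 and 26.1 CPM) and none in the controls. As for Slpi, TDC replicate 1 was the highest library of Mrap and replicate 3 the lowest. Its TDC mean of 77.1 CPM was 35.0 CPM without replicate 1.

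The enzymes had the lowest levels besides Mrap. Hs3st2, a sulfotransferase that modifies heparan sulfate chains and is best known from neurons, had 1060, 2706 and 1270 reads in TDC (95.1, 151 and 94.6 CPM). Gpd1, the cytosolic glycerol-3-phosphate dehydrogenase that links glycolysis to glycerolipid synthesis, had 730, 2031 and 752 reads (65.5, 113 and 56.0 CPM). Vnn3, of the vanin family of pantetheinases, had 926, 1236 and 855 reads (83.1, 68.9 and 63.7 CPM). None of these enzymes had a read in T cells or DC, and the smallest lower bound, for Vnn3, was 1292-fold over T cells and 1372-fold over DC.

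In order of TDC mean the genes ran from Slpi over Pcolce2, Paqr9, Slco2b1, Vstm4, Slc1a3, Hs3st2, Gpd1 and Mrap to Vnn3. Slpi lay above all others in each TDC library. From Pcolce2 to Vstm4 the means ran from 348 to 301 CPM, with SDs of 58.3 to 211 CPM, so their order is within the spread between libraries. The same holds for Gpd1 (78.3 ± 30.7 CPM), Mrap (77.1 ± 73.5 CPM) and Vnn3 (71.9 ± 10.0 CPM).

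The spread among TDC libraries was not used in choosing the members. The ratio of the highest to the lowest TDC library had a median of 1.74 over the members, beside 1.86 over the 8732 tested genes with a TDC mean of at least 10 CPM. Mrap (6.18), Slpi (4.86) and Slco2b1 (3.82) varied most, and 2.19%, 4.11% and 7.96% of those genes had a larger ratio. Vnn3 and Slc1a3 (1.31) varied least, with 85.8% and 85.3% of genes above them. With 350 or more reads of each member in every TDC library, counting error is small beside these ratios.

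**Figure D2:**
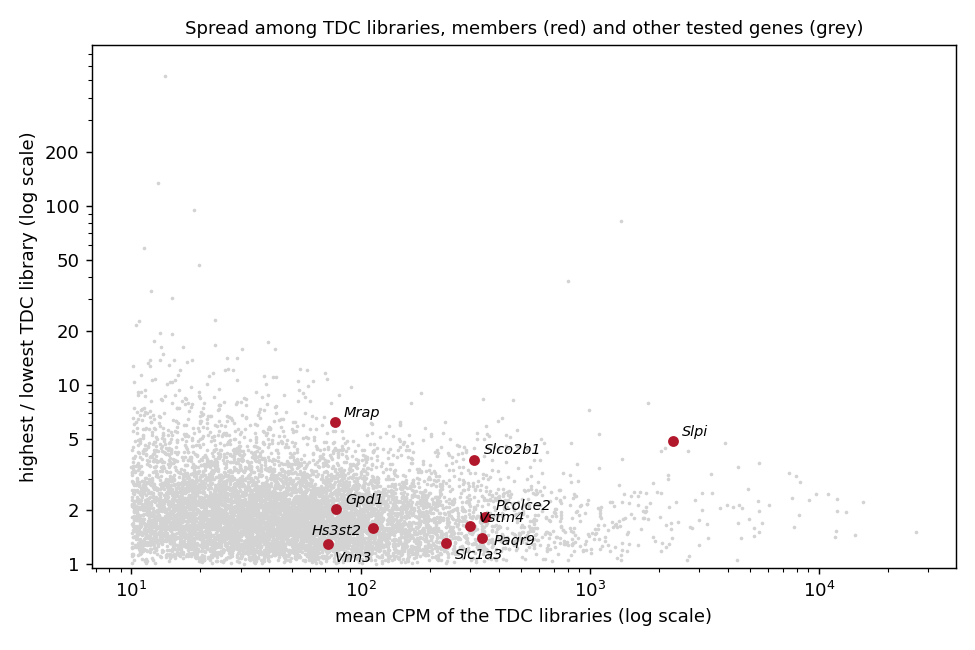
Ratio of the highest to the lowest TDC library (log axis) against the mean CPM of the TDC libraries (log axis) for tested genes with a TDC mean of at least 10 CPM, without 1 gene that had a TDC library at 0. Members are labelled in red. Mrap, Slpi and Slco2b1 lie high in the cloud, and the other 7 members at or below 2.02.

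The most variable members differed in which TDC library was high. TDC replicate 1 held 2.09 times the TDC mean of Mrap and 1.99 times that of Slpi, but 0.458 times that of Slco2b1. Replicate 2 held 1.75 times the mean of Slco2b1, 1.45 times that of Gpd1 and 1.33 times that of Hs3st2. The highest library was replicate 1 for 5 members (Slpi, Pcolce2, Vstm4, Mrap, Vnn3) and replicate 2 for the other 5. Replicate 3 was the highest for none of them.

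**Figure D3:**
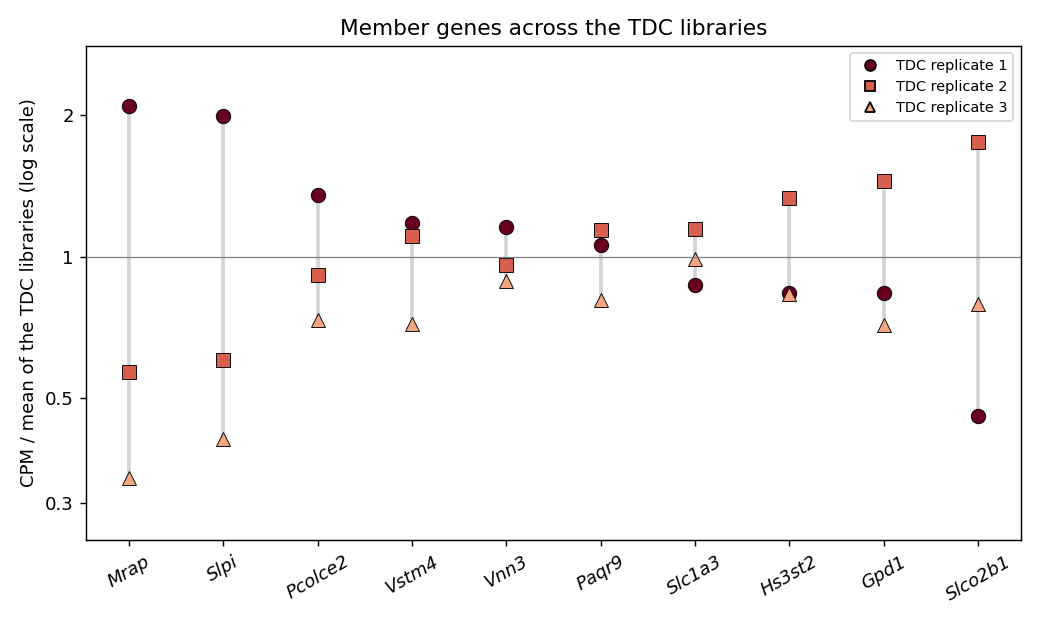
CPM of each TDC library divided by the mean of the TDC libraries (log axis) for the 10 genes, ordered by their value in replicate 1. Mrap and Slpi are highest in replicate 1, at 2.09 and 1.99 times their mean, and Slco2b1 is lowest there, at 0.458 times its mean.

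Markers of several cell types had the order of some of these values, red pulp macrophages included. Of their list, Spic, Hmox1, Treml4, Cd5l, Fcna, Trf, C1qa, C1qb and C1qc had the order of Slpi and Mrap. Fcna was at 13860, 7238 and 6092 CPM in TDC replicates 1, 2 and 3. Slc40a1, Cd163, Adgre1, Mertk and Axl (1547, 7325 and 2749 CPM) had the order of Slco2b1, and Vcam1 and Hpgd had neither. The part of macrophages in these orders was not tested. The neutrophil genes S100a8 and S100a9 were at 24.1 and 39.2 CPM in TDC replicate 1, 2.12 and 2.84 CPM in replicate 2 and 0.149 and 0.0745 CPM in replicate 3, in the order of Slpi and Mrap. Ngp, Retnlg, Mmp8 and Lcn2, also of the neutrophil list, followed the same order at lower levels, with 1.35 to 2.15 CPM in replicate 1 and at most 0.0745 CPM in replicate 3. Cxcr2 ran the other way, at 2.51, 6.64 and 12.6 CPM. Csf3r, the most abundant gene of the list in TDC, was lowest in replicate 1, at 82.1, 142.6 and 121.1 CPM. It made up most of the list's sum in TDC and was at 59.8 to 128.6 CPM in DC. The neutrophil genes Ly6g, Camp and Ltf had no read in TDC, and the 14 genes of the list summed to 137 to 160 CPM in TDC, 0.773 to 3.01 CPM in T cells and 76.7 to 166 CPM in DC. The summed erythroid list also fell in the order of replicates 1, 2 and 3, with 2228, 1198 and 712 CPM in TDC, against at most 2.57 CPM in T cells and 24.2 CPM in DC. Pcolce2, Vstm4 and Vnn3 had the order of Slpi and Mrap as well. So did the summed marginal zone macrophage, plasma cell, adipocyte, adrenal cortex, and megakaryocyte and platelet lists. The part of neutrophils, erythroid cells or any of these other cells in the spread of Slpi and Mrap was not tested. The endothelial list followed the order of Slco2b1, with 356, 947 and 546 CPM in TDC replicates 1, 2 and 3, against 55.7 to 106 CPM in T cells and 39.5 to 90.4 CPM in DC. Of its 8 genes Tek, Emcn and Egfl7 had no read in TDC, Cdh5 and Kdr were below 1 CPM, and Stab2 (182, 475 and 295 CPM), Pecam1 (142, 385 and 206 CPM) and Vwf (32.5, 86.8 and 44.3 CPM) carried the sum. Other lists had the order of Slco2b1 in TDC as well. These were the conventional DC (1963, 5698 and 3455 CPM), monocyte (155, 523 and 307 CPM) and astrocyte and glia lists (54.7, 84.6 and 72.8 CPM). Among the members, Slc1a3 had it too. The part of endothelium or of these other cells in the spread of Slco2b1 was not tested.

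Markers of some of the tissues in which members are best known were near 0 for adrenal cortex and present in part for fat, stroma and glia. For liver, the hepatocyte list summed to 0.948 to 20.5 CPM in TDC, 9.14 to 20.9 CPM in T cells and 3.10 to 40.2 CPM in DC. No read of Adipoq or Lep was found in TDC, and the 9 adipocyte genes summed to 6.19 to 29.6 CPM, most of it Fabp4, which macrophages also use. Of the adrenal cortex list 5 of 6 genes had no read in TDC, among them the ACTH receptor Mc2r, and the list summed to 0.298 to 1.62 CPM. The fibroblast and reticular stroma list summed to 26.4 to 93.3 CPM in TDC, against at most 1.41 CPM in T cells and 0.906 CPM in DC. Cxcl13 accounted for most of it in each TDC library. Pdgfrb was at 2.42 to 11.4 CPM in TDC with no read in the controls, while Col3a1, Lum, Rgs5 and Pdpn had no read in TDC. The 6 genes of the astrocyte and glia list summed to 54.7 to 84.6 CPM in TDC, against at most 0.914 CPM in T cells and 0.459 CPM in DC. Of these, Slc1a2, Aldh1l1 (11.5, 36.1 and 13.9 CPM in TDC) and Gja1 (8.97, 16.1 and 4.99 CPM) carried the sum, Gfap and S100b had at most 0.335 CPM in a TDC library, and Aqp4 had no read. The part of stroma and glia in the levels of the members was not tested.

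The red pulp macrophage list was the most abundant marker list in TDC, with all 16 genes read. It summed to 101692, 90339.5 and 62038.5 CPM in TDC replicates 1, 2 and 3, against the control sums given with Slpi. Spic, which encodes Spi-C, was at 4467, 2246 and 1949 CPM in TDC, at most 0.0703 CPM in T cells and at most 21.8 CPM in DC. By its label TDC stands beside T cells and DC, and reads of both were present. The 10 T cell genes summed to 100 to 309 CPM in TDC against 8312 to 11632 CPM in T cells. Of the 10 genes of the conventional DC list, 6 were called lower in TDC than in DC, Zbtb46 (7.95 CPM in TDC, 67.1 CPM in DC) and Flt3 (37.6 CPM in TDC, 568 CPM in DC) among them. Sirpa, which macrophages also express, was the gene called higher, with 1718, 5460 and 2928 CPM in TDC and 173 to 659 CPM in DC. It made up most of the list's sum in TDC, which was 1963 to 5698 CPM, against 2555 to 3948 CPM in DC. The part of red pulp or marginal zone macrophage RNA in the levels of the 10 genes was not tested.

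**Figure D4:**
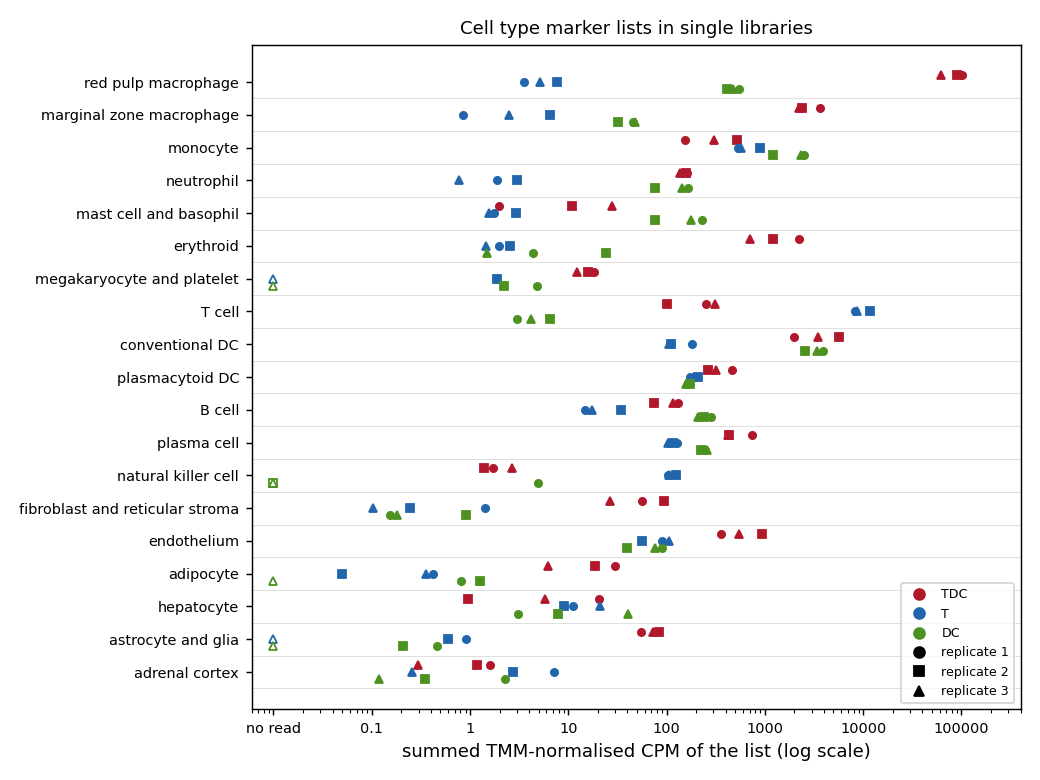
Summed CPM (log axis) of 19 cell type marker lists in each library, with TDC in red above T cells in blue and DC in green, and open symbols for no read. The red pulp macrophage list lies at 62038.5 to 101692 CPM in TDC and at no more than 541 CPM in any control library.

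To see how many other genes share the pattern, it was given a numeric reading: a TDC mean of at least 10 CPM and a mean in each control of at most 1% of it. The table held 174 such genes, with 1.16% of the tested genes among them, and all 10 members. Slpi ranked 12 by TDC mean and the other members 41 to 81. The 5 most abundant others were Slc40a1, the iron exporter (13083 CPM in TDC), Hmox1, the heme-degrading enzyme (11948 CPM), the adhesion molecule Vcam1 (11916 CPM), C1qb, a chain of complement C1q (9670.2 CPM) and the lectin Fcna (9063 CPM). Of the 174 genes, 54 had no read in any control library, and 8 members were among the 9 most abundant of these. Ms4a8a was the single non-member in that rank, a gene named after its values were seen. At 0.411% of its TDC mean in T cells, Slpi is the member nearest to the limit of 1%. No member lay outside it.

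Likeness of pattern was measured as the root mean square difference of centred log2(CPM + 0.5) over the 3 TDC libraries, among those 174 genes. So few libraries allow close matches by chance, and the measure is a description. Mrap was most like Slpi (0.13, beside a median of 1.14 over the genes with the pattern), and Slpi most like Cela1 (0.08) and then Mrap. Slco2b1 was nearest to Slc7a8 (0.04) and to Mrc1, the macrophage mannose receptor (0.05, median 0.75). Hs3st2 was nearest to Vcam1 (0.05). Vstm4 lay nearest to Ccr3 (0.03), Slc1a3 to Ccdc148 (0.03), Paqr9 to Kcnk13 (0.03), Vnn3 to Cbr2 (0.03) and Gpd1 to Slc45a3 (0.09). Slco2b1 and Mrap were the members least alike (1.70).

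Pcolce2 and Paqr9 are adjacent genes on chromosome 9 in RefSeq's order, and both are members. Trpc1, on the outer side of Pcolce2, averaged 5.44 CPM in TDC, 0.252 CPM in T cells and 0.989 CPM in DC. The control values of Trpc1 rest on 15 reads over the T cell libraries and 47 over the DC libraries. It needed its TDC libraries to pass the filter on low counts, so no call is given for it. U2surp, on the outer side of Paqr9, averaged 153 CPM in TDC, 139 CPM in T cells and 134 CPM in DC. It was called in neither comparison of TDC with a control. Of the 20 flanking positions of the 10 members, these 2 are filled by members. A further neighbour, Tpbgl beside Slco2b1, was called higher in TDC than in both controls, at 31.9 ± 13.8 CPM in TDC, 1.64 ± 0.553 CPM in T cells and 0.320 ± 0.395 CPM in DC (SD, n = 3 libraries each). The closest neighbours of Gpd1 and Mrap, Cox14 and Urb1, were called in neither comparison of TDC with a control. Cox14 averaged 131 CPM in TDC, 120.2 CPM in T cells and 99.9 CPM in DC. Vnn1, the paralogue beside Vnn3, had no read in any library. In 3' ends of 500 bases, no member shared a stretch of 50 bases at 95% identity with another gene except Slco2b1, which shared such a stretch with Gm15635 (9 reads in TDC). Overlapping genes remain uncertain since no source used here names the strand setting of the counting. The most abundant of them, Gm34280 at Slco2b1, was at 3.83 CPM in TDC.

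Relatives and partners were listed by family or pathway, with earlier results of these data known, and read from the test over all genes. Of 136 such genes in the table, 74 passed the filter on low counts. Against T cells, 35 of them were called higher in TDC and 5 lower, beside 21.8% and 11.2% of all tested genes. Against DC, 17 were called higher in TDC and 5 lower, beside 9.55% and 4.6% of all tested genes. In both at once 16 were higher, beside 7.06% of all tested genes. These are counts over relatives that passed the filter, not over all relatives, and they include genes with no control read that passed it through TDC alone. For such genes levels are given below without a p. The counts per family below have the same limits and stand beside the same shares of all tested genes. With at most 14 tested genes in a family, nothing is read from them. The median log2 fold changes of the 74 relatives were 1.37 and 0.59, beside 0.14 and 0.01 over all genes. Scaling by library size alone, the calls in the higher direction made up 42.9% instead of 66.0% of all called genes against T cells and 53.1% instead of 67.5% against DC. Both comparisons use the same TDC libraries. The adjusted p-values that follow are edgeR's, corrected over all 14708 tested genes, and fold changes are log2 with their SE.

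Of 14 other SLCO transporters 4 passed the filter, of which against T cells 2 passed as higher and 2 as lower, and against DC 1 as lower. The prostaglandin transporter Slco2a1 was at 2.60, 11.3 and 1.79 CPM in TDC, with no read in T cells and 0.268, 0 and 0 CPM in DC. TDC replicate 2 was its highest library, as for Slco2b1. Slco3a1 fell, at 5.41 to 28.6 CPM in TDC, against 87.2 to 128 CPM in T cells (-3.06, SE 0.63, adjusted p = 0.00417) and 57.4 to 124 CPM in DC (-2.66, SE 0.62, adjusted p = 0.0171). The call against DC ended without TDC replicate 1 or 2 (adjusted p of 0.0592 to 0.0633 in edgeR).

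The other astrocytic glutamate transporter, Slc1a2, is itself among the 174 genes with the pattern. It was at 34.2, 31.9 and 53.9 CPM in TDC, with 1 read over the T cell libraries and none in DC. The neutral amino acid transporter Slc1a5, of the same family, was lower in TDC (17.8 to 77.4 CPM) than in T cells (253 to 501 CPM, -3.24, SE 0.53, adjusted p = 0.00116) and DC (233 to 321 CPM, -2.66, SE 0.52, adjusted p = 0.00731). Of 11 genes that handle glutamate and glutathione, 6 were higher and none lower than in T cells, and 4 were higher and 1 lower than in DC. Among the 6, the call of Glud1 (adjusted p = 0.0487) ended under 10 of 14 alternatives (adjusted p up to 0.455). Glul, glutamine synthetase, was at 585, 351 and 235 CPM in TDC, against 13.2 to 39.1 CPM in T cells and 16.9 to 24.1 CPM in DC (3.98, SE 0.50, and 4.33, SE 0.51). The glutathione genes Gclm, Gss and Gsr were also higher than in both controls, with Gclm at 2.45 (SE 0.32) over T cells and 3.44 (SE 0.33) over DC.

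Of 13 tested heparan sulfate genes other than Hs3st2, 8 passed as higher against T cells and 2 against DC, with none lower. Over all tested genes 21.8% and 9.55% were called higher. The 6-O-sulfotransferase Hs6st1 was at 47.7, 212 and 95.6 CPM in TDC, with 5.46 to 6.82 CPM in T cells (4.27, SE 0.70, adjusted p = 0.00115) and 7.38 to 36.8 CPM in DC (2.32, SE 0.64, adjusted p = 0.0353). TDC replicate 2 was the highest library, as for Hs3st2. The call against DC ended under 9 of 14 alternatives (adjusted p up to 0.193). Extl2, a chain glycosyltransferase, was higher than in both (2.50, SE 0.49, and 2.40, SE 0.49). The paralogues of Hs3st2 were low, with Hs3st3b1 at 0.269, 5.35 and 6.26 CPM in TDC, 9.84 to 16.3 CPM in T cells and 2.86 to 7.69 CPM in DC (adjusted p = 0.178 and 0.751). The 6-O-sulfatase Sulf1, which was below the filter, had 0, 17.6 and 12.6 CPM in TDC and no read in the controls.

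Around Gpd1, the related dehydrogenases Gpd1l and Gpd2 passed in neither comparison (adjusted p of 0.131 to 0.583), with Gpd2 at 59.9 to 68.5 CPM in TDC, 29.4 to 55.3 CPM in T cells and 73.4 to 91.2 CPM in DC. Of 14 tested genes of glycerol phosphate and triglyceride metabolism, 6 passed as higher and 1 as lower against T cells, and 4 were higher and 1 lower than in DC. Among the 6, the call of Lipe (adjusted p = 0.0317) ended under 9 of 14 alternatives (adjusted p up to 0.3). Lpl, the lipase that frees fatty acids from lipoproteins, was at 343, 396 and 330 CPM in TDC, with no read in T cells and 1.30, 1.39 and 0 CPM in DC (at least 6395-fold over T cells). Plin2, which coats lipid droplets, was at 835, 466 and 320 CPM in TDC, 18.2 to 26.2 CPM in T cells and 76.1 to 115 CPM in DC (4.64, SE 0.44, and 2.56, SE 0.40). Dgat2, which makes triglyceride, was 4.40 (SE 0.50) over T cells and 1.61 (SE 0.45) over DC. Its call against DC ended under 8 of 14 alternatives (adjusted p up to 0.140).

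Of the receptors Mrap could serve, the melanocortin receptors Mc2r, Mc3r and Mc4r had no read in any library, and Mc5r had 5 reads in TDC and 22 in DC. Of the PAQR family 3 of 8 tested genes passed as higher against T cells and 1 against DC, beside 21.8% and 9.55% of all tested genes. The gene higher than in both was the adiponectin receptor Adipor1, at 843, 748 and 644 CPM in TDC, 146 to 172 CPM in T cells and 138 to 214 CPM in DC (2.22, SE 0.29, and 2.13, SE 0.29). Around Vnn3, the biotinidase Btd passed against DC only (2.62, SE 0.71, adjusted p = 0.0334), a call that ended under 7 of 14 alternatives. The difference between its contrasts was not tested. Ppcdc, of coenzyme A synthesis, was lower than in T cells (-2.34, SE 0.43, adjusted p = 0.0024).

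Of the WAP domain inhibitors related to Slpi, Wfdc17 was at 394, 175 and 180 CPM in TDC with no read in T cells (at least 4486-fold, adjusted p = 4.5e-05) and at 29.0 to 128 CPM in DC (adjusted p = 0.112). Replicate 1 was its highest TDC library, as for Slpi. The serine proteases that SLPI inhibits were near 0, with 1 read of Elane and 17 of Prtn3 over the TDC libraries and none of Ctsg. Fn1, fibronectin, was at 22.1, 176 and 16.3 CPM in TDC with no read in T cells and at most 6.80 CPM in DC, 1 TDC library carrying most of it.

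Of 6 tested immunoglobulin V genes set beside Vstm4, 4 passed as higher against each control and 1 as lower against DC. Vsig4, a complement receptor of tissue macrophages, was at 32.3, 37.2 and 30.9 CPM in TDC with no read in T cells or DC (at least 601-fold over T cells and 639-fold over DC). Igsf8 was at 442, 581 and 421 CPM in TDC, 14.0 to 21.2 CPM in T cells and 8.15 to 38.8 CPM in DC (4.86, SE 0.56, and 4.46, SE 0.55). Vsir, which encodes the checkpoint protein VISTA, was at 672 to 928 CPM in TDC, 274 to 335 CPM in T cells and 153 to 231 CPM in DC (1.43, SE 0.28, and 2.10, SE 0.29).

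**Figure D5:**
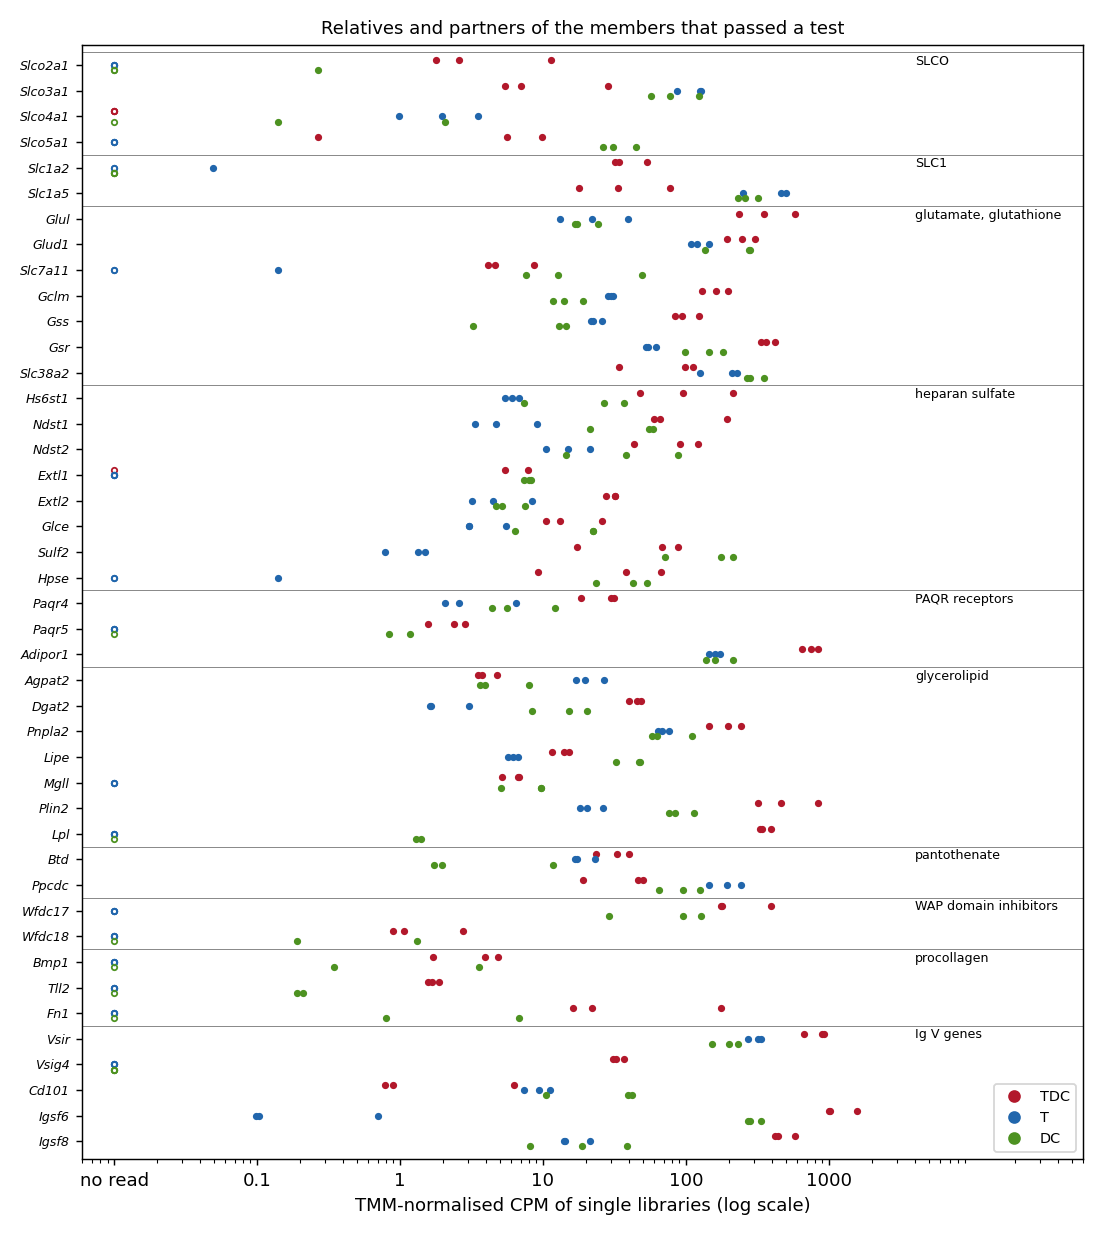
CPM of single libraries (log axis) for the relatives and partners of the members that passed the test against T cells or DC, grouped by family, with TDC in red, T cells in blue, DC in green and open symbols for no read. Slc1a2, Vsig4 and Lpl have TDC levels of 30.9 to 396 CPM and at most 1.39 CPM in any control library, and Slc1a5 and Slco3a1 lie lower in TDC.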

How the data were processed

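RNA of 3 TDC, 3 T cell and 3 DC libraries was extracted with a column kit and made into Lexogen QuantSeq 3' libraries, per the labels' protocols. The deposited values are read counts per gene symbol, not normalised. Trimmomatic, STAR and featureCounts are named without versions in the submitters' processing notes, as is the human build hg38, although samples and symbols are mouse. The sources used here give neither the annotation nor the strand setting. Of the symbols, 26 read as calendar dates, and 4 rows shared a symbol.

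The counts were tested with edgeR 4.0.16 (R 4.3.3): filterByExpr (minimum count 10, minimum total 15), TMM factors, one robust quasi-likelihood model for the 9 libraries (6 residual degrees of freedom, common coefficient of variation 0.588) and Benjamini-Hochberg adjustment at 0.05 over 14708 genes. The script was tested on simulated data. Libraries were pools of mice, so p-values measure the spread between pools. No pair of libraries of a group agreed within sampling noise (chi-square per degree of freedom 62.3 to 250). Lower bounds use 3 reads over a group, with 95% exact intervals where counts were few, both covering counting error only.

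The members and lists were chosen with earlier results of these data known. Named genes are the members, relatives that passed a test or had the highest level, flanking genes, the 3 most like each member, the 5 most abundant others with the pattern, and markers. Some results under this rule are not reported here. Sequences are from RefSeq (GRCm38.p6), and 3' ends from GENCODE M21. Alternatives were DESeq2 size factors, library size scaling, no filter, the DESeq2 1.42.0 Wald test, a replicate block, and fits without each library in turn.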

Additional observations from a re-analysis of the deposited data

How the results depend on the processing

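The number of relatives called stayed within 1.5 times under all 14 alternatives, but the genes called changed. Of 40 calls against T cells 31 held under all of them, and of 22 against DC 13 did. The number against DC ran from 15 (without TDC replicate 2) to 33 (DESeq2 Wald test). With the DESeq2 Wald test 3249 genes were called for TDC against DC, against 2081 with edgeR. Leaving out single libraries gave 1190 (without TDC replicate 2) to 1976 genes there. The median TDC level of the members, 269 CPM, was 208 to 291 CPM when single libraries were left out. The number of genes with the pattern of the members, 174, was 327 with controls at up to 5% of the TDC mean, 108 at up to 0.2%, which leaves out Slpi, and 349 with a TDC mean of at least 1 CPM. Deviations of same-numbered libraries correlated across genes at -0.484 to 0.0962 for TDC with DC, -0.217 to 0.0201 for TDC with T cells and 0.0527 to 0.31 for DC with T cells. In none of these were all pairs over 0.1, so the numbers were not taken as pairs. With 3 libraries per group such correlations cannot show whether same-numbered libraries were matched. Under the replicate block TDC against T cells had 3946 called genes (4858 without it), TDC against DC had 1486 (2081) and DC against T cells 2836 (3506). Over all genes, library size scaling shifted the median log2 fold change by -0.61 for TDC over T cells and by -0.29 for TDC over DC. Single reads are worth 0.0383 to 0.0897 CPM, which limits what can be said of the controls.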

Other observations

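Of the 174 genes with a TDC mean of at least 10 CPM and controls at up to 1% of it, 54 had no read in any T cell or DC library, 8 of them members. The most abundant others, named after their values were seen, were Ms4a8a (96.5 CPM in TDC), Tspan10, a tetraspanin (70.1 CPM), Gas6, a ligand of the receptors Axl and Mertk (69.2 CPM), Dysf, known from membrane repair in muscle (66.2 CPM), Cbr2, a carbonyl reductase (63.2 CPM), and Klf15, a metabolic transcription factor (62.4 CPM). Over all 174 genes with the pattern, TDC replicate 1 was the highest library for 71, replicate 2 for 89 and replicate 3 for 14.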
